A study of Mus musculus with 686 samples.

Results

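The miR-30 family was followed through its 5 guide strands, mmu-miR-30a-5p, mmu-miR-30b-5p, mmu-miR-30c-5p, mmu-miR-30d-5p and mmu-miR-30e-5p, which were taken by name from the 1964 miRNA features of the count table, of which 1880 held a count. The 686 small RNA libraries came from 13 tissues of female BALB/cAnNTac mice, aged 3 or 8 months, of the Rodent Research Reference Mission 1. Mice were flown to the International Space Station (FL), kept on Earth in flight hardware with matched temperature, humidity and carbon dioxide (habitat ground control, HGC), or kept in standard cages (vivarium ground control, VGC). In the live animal return set (LAR), flight mice spent 39.5 days on the station and were killed 2 to 4 days after splashdown, with 114 FL, 113 HGC and 121 VGC libraries. In the station terminal set (TERM), mice were killed 22 to 24 days after launch, on the station or on Earth, with 115 FL, 114 HGC and 109 VGC libraries. The TERM carcasses were frozen whole and thawed before dissection, apart from the spleen, which was taken fresh, whereas LAR tissues were frozen at dissection. In FL mice, time in flight, return to Earth, anesthesia and preservation therefore changed together between LAR and TERM and cannot be told apart. HGC and VGC mice neither flew nor returned, and in them the time of killing, anesthesia and preservation changed together. The labels name no transgene and no drug treatment beyond the anesthesia, the food bars of FL and HGC were affected by mold, and brain of LAR and pancreas of TERM held 3-month mice only. Arms shared mouse numbers but not mice, and 1 mouse gave several tissues.

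A miRNA is a short RNA that guides Argonaute to messenger RNAs, mostly by pairing through its seed, bases 2 to 8 from the 5' end. The miR-30 family shares 1 seed and is known for its high level in kidney, where it takes part in nephron development and in keeping podocytes differentiated, and for roles in adipocyte differentiation. Its genes lie in pairs in the genome, and each hairpin yields a guide strand from its 5' arm (5p) and a less stable partner from its 3' arm (3p). Levels are given below as counts per 1000000 miRNA counts (CPM), and the family sum is the sum of the 5 guide strands.

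RefSeq sequences (build GRCm38.p6) were found for 3 of the 5 members, and they are shown because the shared seed, in capitals, is what makes them a family and because 2 of them are nearly the same molecule. miR-384-5p is shown beside them as the only other mature name among 1679 with the same bases 2 to 8.
mmu-miR-30a-5p: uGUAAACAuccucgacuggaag
mmu-miR-30e-5p: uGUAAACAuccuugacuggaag
mmu-miR-30c-5p: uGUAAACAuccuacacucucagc
mmu-miR-384-5p: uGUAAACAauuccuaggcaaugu

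miR-30a-5p and miR-30e-5p differed by 1 base, C13U, counted from 1 at the 5' end with the base of miR-30a-5p first. miR-30c-5p shared bases 1 to 12 with miR-30a-5p and then differed from it by C13A, G14C, G18C, G19U and A20C. The strands are of 22 or 23 bases, so levels were compared between them without a length correction. miR-30a-5p lies at chr1:23272274-23272295 (plus strand), 19.4 kb from the Mir30c-2 copy of miR-30c-5p at chr1:23291714-23291736 (plus strand). miR-30e-5p lies at chr4:120772660-120772681 (minus strand), 3.05 kb from the Mir30c-1 copy of miR-30c-5p at chr4:120769584-120769606 (minus strand). In GENCODE M21, Mir30e and Mir30c-1 lie inside Nfyc, the gene of a subunit of the transcription factor NF-Y, on its strand and outside its exons. Mir30c-2 lies in an exon of the lincRNA gene Gm27028, and Mir30a lies in no other gene. The 3p strands tell apart the copies of miR-30c, which its guide strand cannot do, and the letters that differ lie outside their seeds.
mmu-miR-30c-1-3p: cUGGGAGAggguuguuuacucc
mmu-miR-30c-2-3p: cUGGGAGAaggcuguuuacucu
mmu-miR-30a-3p: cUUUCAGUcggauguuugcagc
mmu-miR-30e-3p: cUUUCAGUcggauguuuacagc

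All 5 members were counted in all 686 libraries, with lowest counts of 137 for miR-30a-5p, 240.0 for miR-30b-5p, 310.0 for miR-30c-5p, 64 for miR-30d-5p and 195 for miR-30e-5p. miRNA counts per library ran from 0.181 M to 30.5 M (M, 1000000 counts), with a median of 3.88 M. miR-30c-5p held a fractional count in 327 of 686 libraries and the other members in 0, as a division of reads between its 2 hairpins would give, and whether its value sums both hairpins was not tested. A level of miR-30c-5p relative to the other members may therefore be understated.

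The tissue labels were checked against marker miRNAs and against the whole profile, with the miR-30 features left out. All markers were highest in their own tissue for brain, heart, liver, pancreas, spleen and thymus. They were so for 2 of 3 in diaphragm, lung and brown adipose tissue (BAT), for 1 of 3 in gonadal adipose tissue (GAT), and for 0 of 3 in kidney, mesenteric (MAT) and subcutaneous adipose tissue (SCAT), and all 3 kidney markers ranked second there. In 166 of 686 libraries (24.2%) the profile was closer to another tissue than to the labelled one, among them 46 of 57 of MAT, 20 of 60 of BAT, 19 of 59 of diaphragm, 10 of 57 of kidney, 4 of 39 of pancreas and 0 of 25 of brain. Of these, 119 came from 11 of the 44 sequencing pools. Most results that rest on them are given with all libraries and with those of the labelled tissue's profile alone. The tissue medians of single members are given with all libraries.

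Kidney held the most miR-30. The family sum there had a median of 26559 CPM, from 3991 to 50243 over 57 libraries, 2.13 times the median of lung, the next tissue. Lung followed with 12469.8 CPM (3076 to 30003), then pancreas with 10371 (4378 to 25123), BAT with 10121 (3923 to 34343) and MAT with 9900.3 (3677 to 38361). These 4 tissues overlapped over most of their range. Heart had a median of 9651 CPM (4355 to 33192), liver 9429 (3965 to 28074), GAT 8412 (1431 to 28931) and spleen 8276 (3307 to 20480). Thymus had 7395 CPM (1535 to 33086), SCAT 7340.3 (2677 to 15651), brain 6648 (2984 to 13502) and diaphragm 5577 (1120 to 22429), so that kidney stood 4.76 times above the lowest tissue. In these bulk samples a lower level from fewer cells of a type and from less RNA per cell cannot be told apart.

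The high kidney level went with the kidney profile rather than with the label alone. All 47 kidney libraries with a kidney profile lay above the median of every other tissue, against 1 of the 10 kidney libraries with another profile. Conversely, 9 of 629 libraries of other tissues exceeded the kidney median, and 8 of these had a kidney profile. The 15 libraries of other tissues with a kidney profile had a median family sum of 28074 CPM, from 9503 to 38361. Among libraries with their own tissue's profile, the kidney median was 28314 CPM, 2.24 times that of the next tissue and 6.30 times that of the lowest, diaphragm with 4496. Kidney stayed highest with LAR libraries alone (2.06 times the next tissue), with TERM libraries alone (2.29 times), with TMM scaling (1.57 times) and per 1000000 counts of 5 RNA classes (miRNA, tRNA, rRNA, snRNA and snoRNA; 1.78 times), while the order of the other tissues changed with both scales. The rank correlation with the order by CPM over 13 tissues was 0.780 with TMM scaling, where liver came second and brain was lowest, and 0.423 with the 5 classes, where GAT was lowest and kidney stood 16.7 times above it. Among the 5 classes, miRNAs themselves were 2.39% of the counts in GAT and 18.2% in heart.

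**Figure D1:**
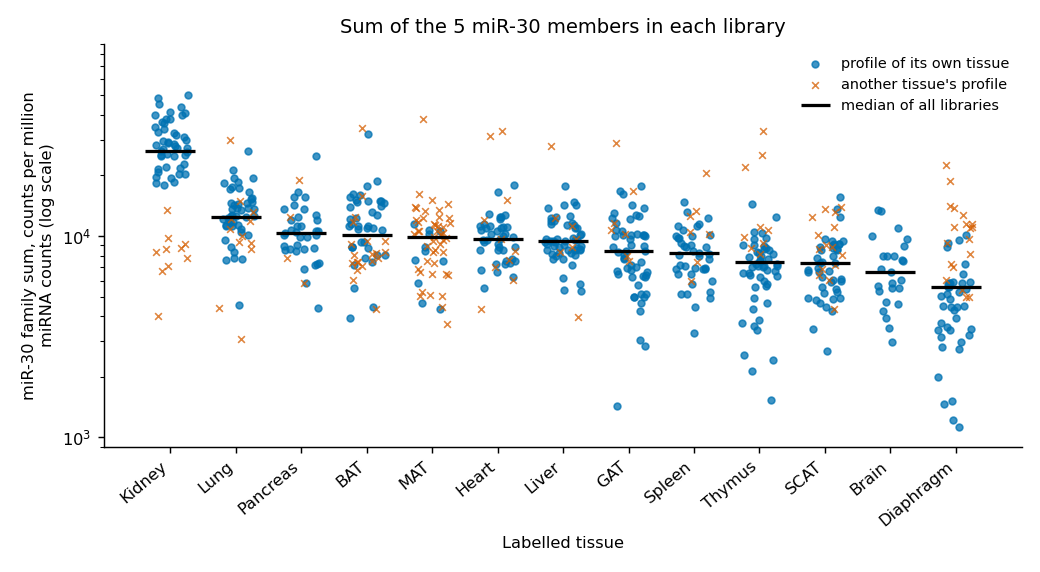
miR-30 family sum in CPM (log axis) for each library of the 13 labelled tissues, as a circle where its profile is that of the label and as a cross where it is another tissue's. Bars are medians of all libraries of a tissue, and the kidney libraries with a kidney profile lie above the medians of all other tissues.

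The members did not follow 1 order over the tissues. miR-30a-5p was highest in kidney, with a median of 3830.0 CPM (580.0 to 10175), then liver with 2243, lung with 2109 and pancreas with 1698. It stood between 1126 and 1084 CPM in GAT, MAT and BAT, at 918 in heart and 878 in SCAT, and at 608, 581, 568 and 505 in brain, diaphragm, spleen and thymus, so that its medians spanned 7.59-fold. miR-30e-5p had the widest span, 8.94-fold. It was highest in kidney at 7516 CPM (468 to 15671), then spleen at 3273, and 2561 in BAT, 2415 in thymus, 2379 in heart, 2275 in liver, 2084 in pancreas and 2013 in MAT. It fell to 1339 CPM in lung, 1327 in brain, 1054 in SCAT, 911 in GAT and 841 in diaphragm. This order pools LAR and TERM, between which its pancreas level differed, as given below. By these pooled CPM medians the near-identical pair parted in spleen and thymus, the lymphoid organs, which were the lowest for miR-30a-5p and among the 4 highest for miR-30e-5p. With TMM factors brain was the lowest for miR-30a-5p, with a log2 difference of -0.23 to the nearest tissue. For miR-30e-5p thymus was then called higher than 7 tissues and lower than 2.

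miR-30c-5p, the most abundant member in 525 of 686 libraries, had a median of 9413 CPM in kidney (1350.2 to 25792), 5125 in lung, 4566 in BAT, 4272 in GAT, 3791 in heart, 3621 in SCAT and 3378 in MAT. It came to 3163 CPM in brain, 3159 in pancreas, 2938 in liver, 2559.6 in diaphragm, 2363 in thymus and 2115 in spleen, a span of 4.45-fold. miR-30b-5p was close in kidney, at 3455 CPM (841 to 8008), and lung, at 3235, followed by MAT at 2594, pancreas at 2171, heart at 2106, spleen at 1781 and BAT at 1643. Liver, thymus, GAT, SCAT, brain and diaphragm followed with 1531, 1529.7, 1516, 1387, 1119 and 1050.1 CPM, and the span was 3.29-fold. miR-30d-5p was the least abundant member and varied least, by 2.67-fold, from 736 CPM in lung and 706 in kidney (218 to 1487) to 276 in liver. Liver was lowest on the CPM scale only. With TMM factors it was called higher than 9 other tissues and lower than 3. The log2 difference of thymus to liver was then -0.81 (edgeR adjusted p 9.4e-12). Its other medians were 533 in heart, 438 in pancreas, 419 in GAT, 408 in spleen, 393 in MAT, 356 in brain, 355 in BAT, 309 in SCAT, 301 in diaphragm and 291 in thymus. Across the 13 tissue medians the rank correlation was highest between miR-30b-5p and miR-30d-5p, at 0.709, and lowest between miR-30c-5p and miR-30e-5p, at 0.033, with 0.099 between miR-30a-5p and miR-30e-5p. With the labelled profile alone these correlations were 0.819, 0.126 and 0.225. The spans were then 9.15-fold for miR-30a-5p, 12.5-fold for miR-30e-5p, 5.88-fold for miR-30c-5p, 4.24-fold for miR-30b-5p and 2.95-fold for miR-30d-5p. These medians share libraries and totals and are given as a description.

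Many neighbours in these orders did not differ beyond their spread, or did so on 1 scale only. For the 60 pairs of neighbouring tissues, edgeR's quasi-likelihood test with TMM factors called 31, a share near the 53.1% of all miRNAs that it called in the same contrasts, and 11 of the 31 went against the order of the medians. This test was fitted over all libraries without a term for the mouse, so it took the tissues of 1 mouse as independent. With library totals in place of TMM factors, the scale of the medians, 8 pairs passed and all 8 followed the order, while 54.3% of all miRNAs were called in those fits (57.5% with the labelled tissue's profile alone). The order came from medians of these same libraries, so the sign of a call on that scale was largely set in advance. The sign differed between the scales in 20 of 60 pairs, of which 10 passed with TMM factors and 0 on both scales. Within mice that gave both tissues, 10 pairs passed a paired permutation test at an unadjusted p under 0.05 and 4 after Benjamini-Hochberg adjustment over the 60 pairs. Of the pairs, 2 passed in the fits with TMM factors, with library totals and with the labelled tissue's profile alone as well as within mice, and both had kidney on top. miR-30c-5p was higher in kidney than in lung by 0.79 on the log2 scale (SE 0.14, edgeR adjusted p 1.2e-07), and in 46 of 55 mice. miR-30e-5p was higher in kidney than in spleen by 1.23 on the log2 scale (SE 0.16, edgeR adjusted p 1.1e-12), and in 31 of 35 mice. For miR-30a-5p the order of kidney and liver depended on the scale: kidney was higher in 41 of 56 mice, with a log2 difference of 0.69 by library totals (edgeR adjusted p 0.00011) and -0.22 with TMM factors (edgeR adjusted p 0.30). Kidney and lung differed in miR-30b-5p by 0.02 on the log2 scale (edgeR adjusted p 0.90), and lung exceeded kidney in miR-30d-5p by 0.24 (edgeR adjusted p 0.061), or by 0.34 (edgeR adjusted p 0.0042) with the labelled profile alone.

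The shares of the members varied among tissues, which is given as a description. Among libraries with their own tissue's profile, miR-30c-5p made up the largest part in GAT, with a median of 51.5% ± 7.0 (SD, n = 53), SCAT with 47.8% ± 4.7 (n = 43), diaphragm with 47.1% ± 7.6 (n = 40) and BAT with 46.8% ± 6.5 (n = 40). It was the leading member in all 53 GAT, all 43 SCAT and all 25 brain libraries of that kind. In spleen miR-30e-5p led instead, and in thymus both were close. In spleen miR-30e-5p took 42.3% ± 7.2 (n = 40), from 24.0% to 58.8%, and miR-30c-5p 23.8% ± 4.6, and miR-30e-5p led in 39 of 40 libraries. It also led in 23 of 49 thymus libraries, where its share was 33.8% ± 9.2 and that of miR-30c-5p 34.2% ± 7.2, and in 11 of 47 kidney libraries, where it was 30.3% ± 6.9. Its share was lowest in lung, 10.0% ± 2.6, and in GAT, 11.8% ± 4.2, and these ranges did not reach the spleen median.

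miR-30a-5p reached its largest share in liver, 24.5% ± 5.7 (n = 51), where it led in 14 of 51 libraries, and its smallest in thymus, 6.3% ± 2.9, and spleen, 6.5% ± 1.8. miR-30b-5p was between 12.8% ± 1.9 in kidney and 27.6% in MAT, with 25.1% ± 3.2 in lung. miR-30d-5p stayed a minor member, from 2.8% ± 0.44 in kidney to 6.5% ± 1.4 in lung, and led in 0 of 686 libraries. Kidney, with the highest sum, thus had the smallest shares of miR-30b-5p and miR-30d-5p, although their levels there were close to those of lung.

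**Figure D2:**
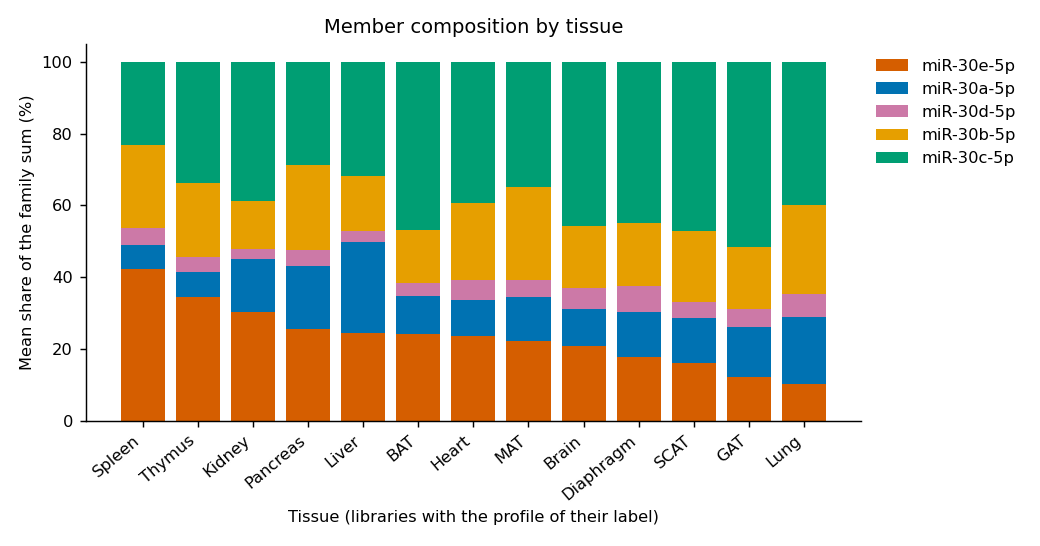
Mean share of each of the 5 members in the miR-30 family sum, in percent, for libraries with their own tissue's profile. Each bar is a tissue and sums to all of the family, and miR-30e-5p takes the largest part in spleen and, by a small margin, in thymus, and miR-30c-5p takes it in the other tissues.

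The partner strands of miR-30c, unlike its guide strand, can be assigned to 1 of its hairpins, though whether their levels follow the output of the hairpin was not tested. The chromosome 1 pair is Mir30a with Mir30c-2 and the chromosome 4 pair is Mir30e with Mir30c-1. In lung, miR-30c-2-3p had a median of 345 CPM and miR-30c-1-3p of 35.9, and in spleen they had 29.5 and 70.4 (libraries with the labelled profile). The log2 ratio of miR-30c-1-3p to miR-30c-2-3p accordingly ran from -3.27 ± 0.50 (SD) in lung to 1.12 ± 0.58 in spleen, with 0.93 ± 0.89 in thymus, -0.26 in kidney, -1.25 in liver and -2.11 in GAT. The ratio of the guide strands of the same pairs, miR-30e-5p to miR-30a-5p, took the same ends, from -0.76 ± 0.52 in lung to 2.74 ± 0.35 in spleen. Thymus followed at 2.40 ± 0.80, then heart at 1.33, BAT at 1.22, kidney at 1.09, liver at -0.08 and GAT at -0.25. In kidney both strands were high, at 338 CPM for miR-30c-1-3p and 380 for miR-30c-2-3p.

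Over the 13 tissue medians the ratios had a rank correlation of 0.879 (Pearson 0.950), and 0.896 with all libraries, which is a description of 13 points that share libraries. Within tissues the rank correlation over libraries was weaker, from -0.205 to 0.708 in thymus with a median of 0.193, and it was positive in 7 of 13. The guide strands exceeded their partners in all tissues with both measured, by a median log2 ratio of 0.64 in SCAT to 2.11 in pancreas for miR-30a, 5.10 in diaphragm to 7.10 in MAT for miR-30b, 2.39 in spleen to 4.12 in diaphragm for miR-30d, and 2.06 in diaphragm to 3.94 in liver for miR-30e.

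**Figure D3:**
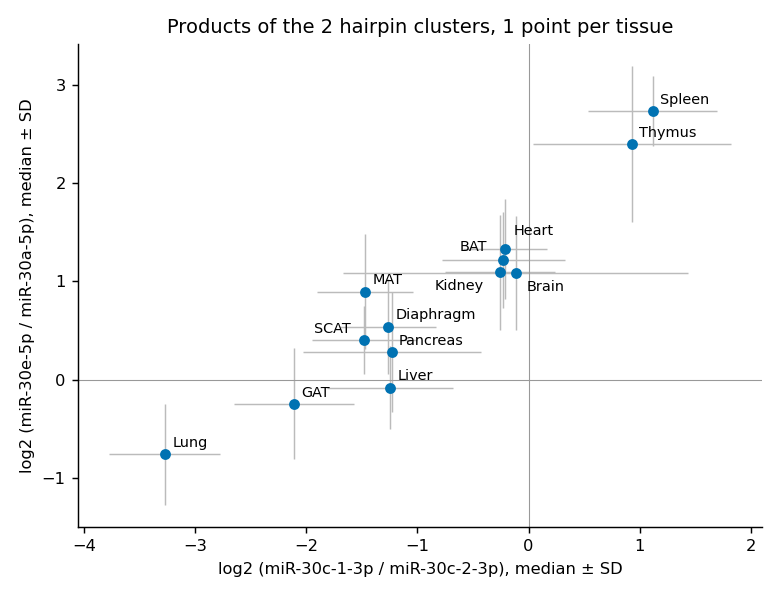
Median log2 ratio of miR-30c-1-3p to miR-30c-2-3p (x axis) against that of miR-30e-5p to miR-30a-5p (y axis) for the 13 tissues, libraries with their own tissue's profile. Each point is a tissue with its SD over libraries as lines, lung lies lowest on both axes, and spleen and thymus lie highest.

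miR-384-5p, which shares the seed, was a brain miRNA in these data. Its median was 137 CPM in brain, from 26.5 to 250.5, against 4.04 in pancreas and at most 1.38 in the other tissues, and it was at 0 in 266 of 686 libraries, where a count of 0 allows up to 3 counts. Even in brain it stayed below miR-30d-5p, the least abundant member there at 356 CPM. miR-30f was at 0 in 529 of 686 libraries and reached at most 2.01 CPM. It starts with the same 7 letters at base 1 and so does not hold the seed, and its RefSeq position, chr4:120772621-120772642 on the plus strand, lies opposite the Mir30e hairpin.

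The 5 other miRNAs whose tissue medians ranked most like the family sum, among 590 with a median of at least 10 CPM in a tissue, were miR-27b-3p with a rank correlation of 0.797 over 13 tissues, miR-101a-5p with 0.786, miR-126a-5p with 0.714, miR-10a-3p with 0.670 and miR-23b-3p with 0.670. With the labelled tissue's profile alone, these were 0.742, 0.687, 0.791, 0.571 and 0.626.

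No miR-30 member passed the test between arms in any tissue with TMM factors. In each of 6 comparisons of arms (FL vs. HGC, FL vs. VGC and HGC vs. VGC, in LAR and in TERM), edgeR's quasi-likelihood test called 0 of 65 values, 5 members in 13 tissues, at an adjusted p under 0.05. The share of all miRNAs called was 1.54% for FL vs. HGC in LAR and 0.307% in TERM, 0.736% and 0.712% for FL vs. VGC, and 0.176% and 0.251% for HGC vs. VGC, so that 0 calls among 65 is near the background. At an unadjusted p under 0.05 there were 1 and 3 values for FL vs. HGC, 2 and 5 for FL vs. VGC, and 1 and 0 for HGC vs. VGC. DESeq2 and the study's rank test called 0 as well. With library sizes summed over the 5 RNA classes, FL vs. HGC in LAR gave 2 calls, against 2.63% of all miRNAs, and both were in GAT, miR-30d-5p (1.45, edgeR adjusted p 0.049) and miR-30e-5p (2.35, edgeR adjusted p 0.049). On that scale the median of all miRNAs in GAT was itself 1.19 higher in FL and 16.6% of them were called, and with TMM factors the differences were -0.02 (edgeR adjusted p 0.99) and 0.90 (edgeR adjusted p 0.50).

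Kidney gives the example, since the family was highest there. In LAR the kidney family sum was 3991, 25135 and 38122 CPM (lowest, median, highest; n = 10) in FL, 6734, 25822 and 43600 (n = 10) in HGC, and 7738, 26559 and 31946 (n = 9) in VGC. In TERM it was 8346, 27550 and 48268 (n = 10) in FL, 19652, 29751 and 41370 (n = 9) in HGC, and 7060, 29290 and 50243 (n = 9) in VGC. The arms overlapped in both sets, though VGC ended lowest in LAR and HGC had the narrowest range in TERM. The lowest FL and HGC libraries of LAR had a diaphragm and a GAT profile, and the others began at 17938 and 18441 CPM. For FL vs. HGC the members' log2 differences lay between -0.87 and 0.92 in LAR and between -1.02 and 0.41 in TERM, with medians of -0.02 and -0.10. Their median size was 0.193 in LAR and 0.259 in TERM, against 0.426 and 0.382 over all miRNAs tested. The latter include miRNAs with low counts, and the members were not compared with miRNAs of like abundance. The median SE was 0.33 and 0.35, and differences of several SE were needed to pass after adjustment, so that smaller changes were not detectable here.

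Of the 12 values at an unadjusted p under 0.05, lung and thymus held 8. In lung, miR-30e-5p was higher in FL than in HGC by 0.60 on the log2 scale (SE 0.28, edgeR adjusted p 0.41) and than in VGC by 0.77 (edgeR adjusted p 0.30) in LAR, and lower than in VGC by -0.95 (edgeR adjusted p 0.28) in TERM. Its lowest, median and highest levels in LAR lung were 877, 1485 and 3889 CPM in FL, 872, 1099.97 and 2115 in HGC and 574, 1204 and 1994 in VGC, and the arms overlapped. In TERM thymus, FL against VGC differed by -1.70 for miR-30a-5p (SE 0.57, edgeR adjusted p 0.17) and by -1.12 for miR-30c-5p (edgeR adjusted p 0.17). There miR-30a-5p was 54.4, 368 and 658 CPM in FL, 247, 358 and 1698 in HGC and 128, 494 and 4805 in VGC, and the highest VGC library had a kidney profile. The value nearest to a call was that of miR-30a-5p in LAR pancreas between FL and VGC (-0.61, SE 0.25, edgeR adjusted p 0.152).

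**Figure D4:**
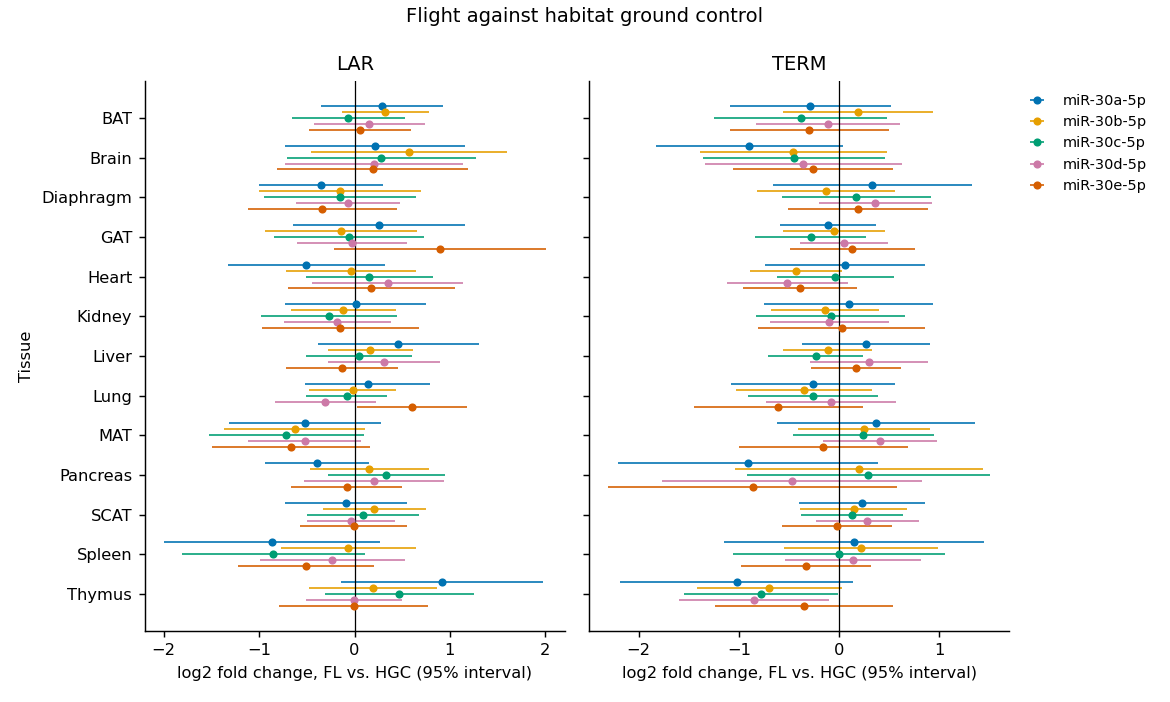
Log2 difference between FL and HGC for the 5 members in 13 tissues, in LAR and in TERM, from edgeR's quasi-likelihood test. Points are estimates with 95% intervals, and none of the 65 values in either set passed at an adjusted p under 0.05.

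Between 8 and 3 months, the members' calls were no more frequent than those of all miRNAs. In LAR 0 of 60 values passed, against 0.296% of all miRNAs, and in TERM 1 of 60, a share near the 1.83% of all miRNAs, with 2 and 3 at an unadjusted p under 0.05. The value was miR-30a-5p in MAT of TERM, which was lower at 8 months by -1.36 on the log2 scale (SE 0.32, edgeR adjusted p 0.0061). Its lowest, median and highest levels were 297, 1122 and 2031 CPM at 3 months (n = 15) and 359, 598 and 1340.1 at 8 months (n = 14), with an overlap of the ages. Of these libraries, 6 of 15 and 1 of 14 had a MAT profile, and in this tissue 13.9% of all miRNAs were called. With the library plate as a term the difference was -0.93 (edgeR adjusted p 0.795), and with the MAT profile alone the ages could not be fitted. In LAR the same contrast of miR-30a-5p in MAT was -0.13 (edgeR adjusted p 1.00), and the smallest adjusted p of the members was 0.173, for miR-30e-5p in thymus (-0.74). In kidney the family sum had medians of 25340 CPM at 3 months and 25822 at 8 months in LAR, and 29607 and 27464 in TERM.

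LAR and TERM differed in the pancreas, where the family changed its mixture more than its sum. Over the 13 tissues 4 of 65 values passed between LAR and TERM, against 6.81% of all miRNAs, with 9 at an unadjusted p under 0.05. Of the 4, 3 were in pancreas: miR-30b-5p and miR-30c-5p were higher in LAR and miR-30e-5p was lower. The other was miR-30a-5p in MAT, higher in LAR by 0.84 (edgeR adjusted p 0.0079), with medians of 1538 CPM (n = 28) and 760.4 (n = 29), and with the MAT profile alone this was 0.15 (edgeR adjusted p 0.967). Without the mice numbered 13 it was 0.64 (edgeR adjusted p 0.055). In MAT 37.5% of all miRNAs were called. In pancreas 134 of 843 miRNAs were called (15.9%).

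In pancreas the family sum was 4378, 10273 and 25123 CPM (lowest, median, highest; n = 28) in LAR and 5848, 10546 and 16600.4 (n = 11, of which 4 FL, 5 HGC and 2 VGC) in TERM. miR-30b-5p was 982, 2629 and 8201 CPM in LAR and 557, 1138 and 2047 in TERM, a log2 difference of 1.25 (SE 0.27, edgeR adjusted p 0.0012). miR-30c-5p was 1498, 3608 and 9074 CPM in LAR and 863, 1925 and 3159 in TERM, a log2 difference of 1.11 (SE 0.25, edgeR adjusted p 0.0015). Both were lower in TERM at the median, with an overlap of single libraries.

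miR-30e-5p went the other way. It was 836, 1646 and 3701 CPM in LAR and 925, 3886 and 8905 in TERM, a log2 difference of -1.17 (SE 0.23, edgeR adjusted p 0.00038). By library, TERM had 925, 3775, 2420.5 and 6432 CPM in FL, 8905, 3728, 3967, 8278 and 8179 in HGC, and 3886 and 3109 in VGC, so that 8 of 11 exceeded the highest LAR library. In LAR its medians were 1484 CPM in FL, 1679 in HGC and 1957 in VGC, with highest libraries of 3701, 3252 and 3211. miR-30a-5p, with medians of 1511 CPM in LAR and 2545 in TERM, had a log2 difference of -0.55 (SE 0.23, edgeR adjusted p 0.086), and passed in 10 of 27 alternatives. miR-30d-5p, with 393 and 781 CPM, had -0.44 (SE 0.27, edgeR adjusted p 0.26).

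As shares of the family sum, miR-30e-5p had a median of 17.5% in LAR (10.8% to 27.7%) and of 38.3% in TERM (15.8% to 60.5%). The TERM library at 15.8% had a MAT profile, and with the pancreas profile alone the lowest TERM library, at 28.3%, lay above the highest LAR library, at 27.7%. miR-30b-5p fell from a median of 29.0% in LAR to 10.8% in TERM and miR-30c-5p from 35.6% to 16.7%, while miR-30a-5p had 14.0% and 19.8% and miR-30d-5p 3.7% and 6.2%. These shares describe the values of the contrast just given.

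**Figure D5:**
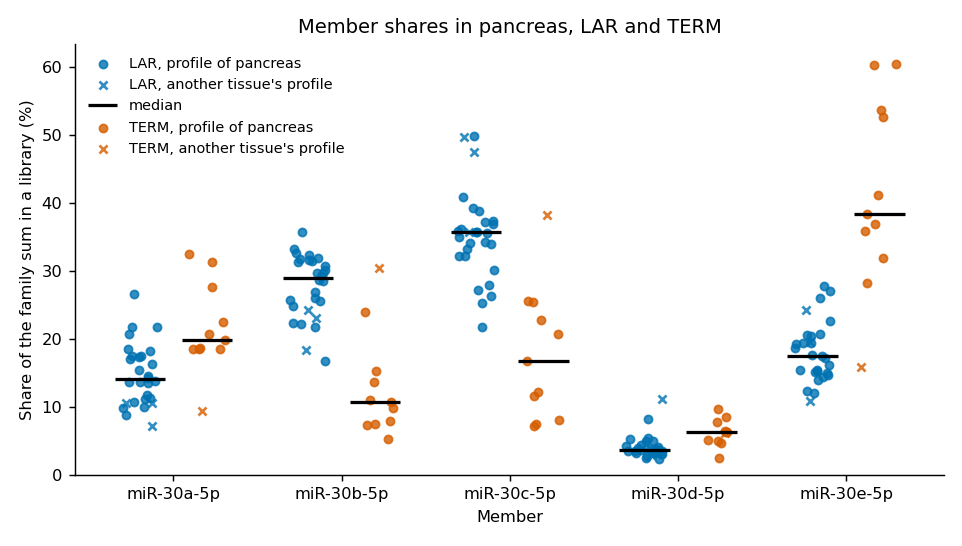
Share of each member in the miR-30 family sum of a pancreas library, in percent, for LAR (n = 28) and TERM (n = 11). Circles have a pancreas profile, crosses another tissue's, and bars are medians, and the TERM circles of miR-30e-5p lie above all LAR points while those of miR-30b-5p and miR-30c-5p lie mostly below.

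Of the 6 partner strands in pancreas, 5 passed between LAR and TERM, against 15.9% of all miRNAs there, and all 5 had a lower level in TERM. They included that of miR-30e, whose guide strand was higher in TERM. miR-30a-3p was higher in LAR by 1.65 on the log2 scale (medians 481 and 108 CPM, edgeR adjusted p 0.0018), miR-30b-3p by 1.23 (32.3 and 12.1 CPM, 0.0042), miR-30c-1-3p by 1.93 (67.3 and 15.9 CPM, 0.00014), miR-30c-2-3p by 1.32 (144 and 59.2 CPM, 0.0042) and miR-30e-3p by 1.02 (172 and 74.5 CPM, 0.017). For miR-30d-3p the difference was 0.92 (39.5 and 16.8 CPM, edgeR adjusted p 0.068). The median ratio of guide to partner strand was 12.4 in LAR and 65.9 in TERM for miR-30e, and 3.23 and 23.6 for miR-30a. It was 11.4 and 36.6 for miR-30d, and 84.4 and 78.2 for miR-30b. These ratios are a description and were not tested, and neither strand of miR-30d passed by itself. Without the mice numbered 2, the calls of miR-30a-3p (1.48, edgeR adjusted p 0.078), miR-30b-3p (1.00, 0.149), miR-30c-2-3p (1.29, 0.078) and miR-30e-3p (0.95, 0.200) were lost, with differences of the same direction. In all, miR-30c-2-3p was lost in 2 alternatives and miR-30e-3p in 6.

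Other values moved with the pancreas sets. The TERM pancreas held only 3-month mice, miRNA counts had medians of 0.947 M in LAR and 0.702 M in TERM, and miRNAs were 2.60% and 1.02% of the counts of 5 RNA classes. Of the acinar markers, miR-216a-5p had medians of 12847 and 23072 CPM, miR-216b-5p of 4467 and 1999.7, and miR-217-5p of 13646 and 13291. The liver miRNA miR-122-5p had 682 and 3372 CPM and the blood cell miRNA miR-142a-3p 1018 and 546. The part of depth and of these cell types in the result was not tested. Among 3-month mice alone (15 LAR, 11 TERM) the log2 differences were 1.20 for miR-30b-5p (edgeR adjusted p 0.0086), 1.04 for miR-30c-5p (0.013) and -1.16 for miR-30e-5p (0.010), with -0.62 for miR-30a-5p (0.11) and -0.28 for miR-30d-5p (0.56). In that fit 102 of 775 miRNAs were called. Among 3-month mice with a pancreas profile (13 LAR, 10 TERM) the differences of the first 3 were 1.20 (edgeR adjusted p 0.0047), 0.96 (0.016) and -1.36 (0.00057), and that of miR-30a-5p was -0.77 (0.015). There 139 of 744 miRNAs were called.

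With the labelled profile alone in all tissues, 11 of 65 values passed between LAR and TERM, against 7.15% of all miRNAs. By tissue the share of all miRNAs was 38.8% in thymus, 24.1% in pancreas, 6.07% in liver and 5.20% in SCAT. In pancreas all 5 members were among the calls, and miR-30a-5p (-0.71, edgeR adjusted p 0.0068) and miR-30d-5p (-0.73, edgeR adjusted p 0.014) joined miR-30e-5p (-1.41, edgeR adjusted p 1.1e-06) on the side higher in TERM. Of the other 6, 4 were in thymus, where miR-30a-5p was higher in LAR by 0.54 (edgeR adjusted p 0.018) and miR-30b-5p (-0.42), miR-30c-5p (-0.37) and miR-30e-5p (-0.45) lower. The last were miR-30a-5p in liver (0.42, edgeR adjusted p 0.037) and miR-30c-5p in SCAT (-0.45, edgeR adjusted p 0.046).

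With edgeR and all libraries, no member's flight difference was called as varying with age or between LAR and TERM. For FL vs. HGC at 8 against 3 months, 0 of 60 values passed in LAR (0.113% of all miRNAs) and 0 of 60 in TERM (1.06%), with 1 and 2 at an unadjusted p under 0.05. In TERM, DESeq2 gave 1 call for this contrast, and leaving out each mouse number in turn gave 0 to 1. For FL vs. HGC in LAR against TERM, 0 of 65 passed (1.04% of all miRNAs), with 4 at an unadjusted p under 0.05. The value nearest to a call was miR-30a-5p in TERM heart, whose FL vs. HGC difference was higher at 8 months by 2.13 (SE 0.72, edgeR adjusted p 0.085), and its highest FL library there, 6493 CPM, had a kidney profile. In lung, the FL vs. HGC difference of miR-30e-5p was higher in LAR than in TERM by 1.16 (SE 0.48, edgeR adjusted p 0.15).

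Of the partner strands and miR-384-5p, few values passed between arms or ages. FL vs. HGC in LAR gave 2 of 89 (1.54% of all miRNAs), FL vs. VGC gave 1 of 89 in LAR (0.736%) and 1 of 92 in TERM (0.712%), and all 4 were miR-384-5p, in BAT or liver, outside the tissue where it is abundant. In BAT of LAR its highest HGC library held 117 counts and had a brain profile, and in liver the highest FL libraries held 23 counts in LAR and 33 in TERM. With the labelled profile alone these comparisons gave 0 calls of miR-384-5p. Between ages, miR-30a-3p in thymus passed in LAR (-1.37, edgeR adjusted p 0.047) and miR-384-5p in MAT in TERM (-1.76), 1 of 82 and 1 of 85 values against 0.296% and 1.83% of all miRNAs. With the labelled profile alone the first was not called and the second could not be fitted. Between LAR and TERM 8 of 93 passed, a share near the 6.81% of all miRNAs, of which 5 were the pancreas strands above, with miR-30c-1-3p in BAT (0.89), miR-384-5p in MAT (0.96) and miR-30b-3p in thymus (-0.54). With the labelled profile alone 11 of 93 passed (7.15% of all miRNAs). The values in BAT and MAT were not among them, and miR-30d-3p in pancreas (0.92, edgeR adjusted p 0.035), miR-30c-1-3p in SCAT (0.57) and miR-30c-2-3p (0.74), miR-30d-3p (-0.59) and miR-30e-3p (-0.55) in thymus were gained, where 38.8% of all miRNAs were called. With the labelled profile alone, miR-30c-2-3p also passed in thymus between ages in LAR (1.12, edgeR adjusted p 0.0082) and in heart for FL vs. HGC in LAR against TERM (1.51, SE 0.33, edgeR adjusted p 0.022).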

How the data were processed

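Small RNA reads were, per the labels and the study's methods, processed by the authors with miRMaster 2.0 against GRCm39 and miRBase 22.1. The deposited miRNA values are estimated counts, of which 0.790% carry a fraction, and the deposited tables of tRNA, rRNA, snRNA and snoRNA served for the totals of 5 RNA classes. CPM was computed from the miRNA total of each library. For tests the values were rounded and fitted with edgeR 4.0.16 (limma 3.58.1, R 4.3.3), TMM factors and the quasi-likelihood test. Arms, ages and sets were compared in fits per tissue, for miRNAs with at least 5 counts in at least 10% of the libraries of an arm. Tissues were compared in 1 fit over all 686 libraries, with terms for tissue, arm and set and none for the mouse. The p-values were adjusted by Benjamini-Hochberg over all miRNAs kept. DESeq2 1.42.0 was an alternative. The fits were tested on simulated data. Paired permutation tests were two-sided with 100000 resamples (SciPy 1.17.1). Intervals of 95% are from the fits.

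A library was said to have another tissue's profile when it resembled that tissue's median over 721 miRNAs more than its own. The text names the 5 members, the 3p strands of their hairpins, miRNAs of the same seed and the 5 miRNAs with the most similar tissue medians. The members, lists and tests were chosen with earlier results of these data known, and the 3-month pancreas contrasts after seeing the data. The tables of circRNA, lncRNA, piRNA and scaRNA were not used here.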

Additional observations from a re-analysis of the deposited data

Results flagged for a closer look

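The family sum was examined for single libraries that stand apart in the 77 groups of tissue, arm and set with 4 to 10 mice, and 4 groups held one by Dixon's criterion, while chance gives about 1 in 20. In kidney of FL in LAR, mouse 3 had 3991 CPM, against 17938 to 38122 in the others, and its library had a diaphragm profile. In kidney of HGC in LAR, mouse 1 had 6734 CPM, against 18441 to 43600 in the others, with a GAT profile. In lung of FL in TERM, mouse 14 had 3076 CPM, against 8323 to 18424 in the others, with a BAT profile. In liver of VGC in TERM, mouse 4 had 12624 CPM, against 8254 to 10204 in the others, with a liver profile.

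The FL vs. HGC difference of miR-384-5p in GAT differed between LAR and TERM by -5.09 on the log2 scale (SE 1.20, edgeR adjusted p 0.017). Its counts in GAT were near 0, and the highest HGC library of LAR, with 15 counts, had a thymus profile. With the labelled profile alone this difference was not called.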

How the results depend on the processing

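Of the 60 neighbouring pairs of tissues, 20 changed sign between TMM factors and library totals, of which 10 had passed with TMM factors and 0 passed on both scales. Among the pairs named with their values, 2 were reversed. The difference of miR-30a-5p between kidney and liver went from -0.22 to 0.69 with library totals, 0.0735 with the labelled profile alone and 0.52 within mice, and that of miR-30b-5p between kidney and lung from 0.0230 to -0.0425 with the labelled profile alone. The counts of member calls moved as follows. For FL vs. HGC in LAR, library sizes summed over RNA classes gave 2 calls in place of 0, both in GAT. For age in TERM, the plate as a term gave 0 of 55 in place of 1 of 60, and the labelled profile alone gave 0 of 55 because MAT, the tissue of the call, could not be fitted, while leaving out each mouse number in turn gave 1 to 2. For LAR vs. TERM, DESeq2 gave 7, leaving out the 11 pools with over 1 in 3 libraries of another profile 7 and the labelled profile alone 11 in place of 4, and leaving out each of the 18 mouse numbers gave 4 to 6. For the age difference of FL vs. HGC in TERM, DESeq2 gave 1 in place of 0, and leaving out each number gave 0 to 1. For neighbouring tissues, library totals gave 8 calls in the order of the medians in place of 20, and the within-mouse permutation 10 at an unadjusted p under 0.05 and 4 after adjustment. The cause of these moves was not tested, apart from the smaller number of libraries where profiles or mice were left out. With the mouse number as a replicate block the 6 arm comparisons gave 0 calls, as without it. The numbers do not pair the mice: 273 of 653 same-number pairs of libraries had deviations correlated above 0.1, in 0 of 26 sets did all pairs, and 83 of 676 libraries correlated best with their own number. Depth did not limit detection of the members, whose lowest count was 64, but it did limit miR-384-5p outside brain and miR-30f.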
